A study of Homo sapiens with 48 samples.

Results

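The oligosaccharyltransferase inhibitor NGI-1 was given for 24 h at 5 µM to TMD8 cells, and their RNA was compared with that of TMD8 cells kept for 24 h in the vehicle DMSO. TMD8 is an established human cell line of the activated B cell-like (ABC) form of diffuse large B cell lymphoma. All cells compared here, controls included, carried the genotype given as Cas9 engineered, and the labels do not say whether the line is a single clone. The 4 libraries were taken by their line, time and compound from the 48 libraries of the series, with 2 treated and 2 DMSO libraries. The series also covers HBL1, another ABC line, the times 3 h and 6 h, and 2 kinase inhibitors, acalabrutinib at 50 nM, which blocks BTK, and copanlisib at 20 nM, which blocks PI3K. From these, HBL1 with NGI-1 or DMSO at 24 h, TMD8 with NGI-1 or DMSO at 3 h and 6 h, and TMD8 with either kinase inhibitor at 24 h were used for comparison, each with 2 libraries a group. The labels call the 2 libraries of a group duplicates and do not say whether they come from separate cultures. The p-values therefore speak of the spread between libraries, and that spread may be technical.

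In the ER, oligosaccharyltransferase moves a preassembled glycan from the lipid dolichol onto asparagines of new proteins, through catalytic subunits named STT3A and STT3B that sit in separate complexes. Glycans that are missing or not trimmed leave proteins misfolded, and the unfolded protein response answers through the sensors ATF6, IRE1 (gene ERN1) and PERK (gene EIF2AK3), which raise chaperones, degradation factors and, by way of ATF4, amino acid and tRNA synthetase genes. ABC lymphoma cells depend on signals from the B cell receptor and from MYD88 with Toll-like receptors, whose surface or endosomal proteins are glycosylated, and these signals hold NF-kB targets, IRF4 and secreted cytokines at a high level.

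The promoters of 4 ER stress genes whose RNA was higher with NGI-1 show the letters through which ATF6 and XBP1 are known to act. The 250 bases before the start of each gene are given 5′ to 3′ on the gene's own strand, from RefSeq on GRCh38.p14. They lie at chr9:125241344-125241593 (- strand) for HSPA5, chr22:28800570-28800819 (- strand) for XBP1, chr22:21642052-21642301 (+ strand) for SDF2L1 and chr11:119057206-119057455 (- strand) for HYOU1. Capitals mark the searched motifs: the ER stress element (CCAAT and CCACG with any 9 bases between them) in HSPA5 and XBP1, its type II form (ATTGG and CCACG with any 1 base between them, here on the opposite strand) in SDF2L1 and at both marked places in HYOU1, and in HYOU1 also the unfolded protein response element (TGACGTGG), which overlaps the first of the type II matches.
HSPA5: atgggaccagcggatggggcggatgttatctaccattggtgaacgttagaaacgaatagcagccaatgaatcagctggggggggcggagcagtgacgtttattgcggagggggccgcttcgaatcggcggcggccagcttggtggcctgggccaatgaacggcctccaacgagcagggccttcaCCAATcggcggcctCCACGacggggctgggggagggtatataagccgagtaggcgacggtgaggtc
XBP1: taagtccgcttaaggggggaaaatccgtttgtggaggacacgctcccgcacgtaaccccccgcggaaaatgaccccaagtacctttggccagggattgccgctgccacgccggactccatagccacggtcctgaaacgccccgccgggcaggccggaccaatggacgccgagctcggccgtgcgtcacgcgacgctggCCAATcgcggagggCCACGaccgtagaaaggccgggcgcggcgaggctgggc
SDF2L1: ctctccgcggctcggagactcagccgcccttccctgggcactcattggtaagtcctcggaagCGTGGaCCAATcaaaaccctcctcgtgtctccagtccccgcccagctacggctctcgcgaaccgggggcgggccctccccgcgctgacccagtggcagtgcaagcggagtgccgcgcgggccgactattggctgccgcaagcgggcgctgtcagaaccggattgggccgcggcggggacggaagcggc
HYOU1: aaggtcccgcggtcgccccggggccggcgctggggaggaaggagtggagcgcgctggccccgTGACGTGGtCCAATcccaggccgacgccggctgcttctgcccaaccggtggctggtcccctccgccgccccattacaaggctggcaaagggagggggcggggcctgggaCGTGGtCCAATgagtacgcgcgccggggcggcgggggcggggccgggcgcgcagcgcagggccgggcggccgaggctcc

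Both strands of all 27305 promoter windows of the same length, 250 bases before to 50 bases after a start, were searched. The ER stress element stood in 22 of them, or 0.0806%, and its type II form in 15, or 0.0549%. Of 1709 promoters of genes that rose with NGI-1, 10 held the ER stress element (0.585%), against 15 of 10375 promoters of all tested genes (0.145%) and 0 of 1690 of genes that fell. Among the ER chaperones listed here it stood in 5 of 18 promoters, those of HSPA5, HSP90B1, CALR, CANX and CRELD2. All of these rose and are also among the 10 above, as are XBP1 and ERO1LB. The counts thus overlap, and the listed genes were chosen with earlier results of these data known. The unfolded protein response element was more common, in 217 of all windows (0.795%). It stood in 27 of the 1709 promoters of genes that rose (1.58%) and 7 of the 1690 of genes that fell (0.414%). Of all tested genes 96 of 10375 held it (0.925%). Among the listed ER genes with this element, HYOU1, TXNDC11 and UBE2J1 rose, and DNAJC10 and VCP were not called. A match describes these letters only, and was not measured as a bound site.

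The 4 libraries held 8622515 to 10417212 counted reads, within the range of 7165377 to 11999050 over the series, and each resembled its own replicate most closely among all 48 libraries. The defining B cell genes were present: the 8 markers, among them MS4A1 and PAX5, summed to 3718 to 3746 counts per 1000000 counted reads (CPM) with DMSO and 5672 to 5743 CPM with NGI-1, and 7 of them rose. PAX5 had an adjusted p of 0.0332, or 0.403 without NGI-1 replicate 1 and 0.263 without DMSO replicate 2 (7.36e-07 to 0.403 over all alternatives), and CD22 of 0.00444, or 0.057 without DMSO replicate 2 (6.46e-21 to 0.057 over all alternatives). The 10 T and NK cell markers in the table summed to 2.11 to 2.55 CPM with DMSO and 4.64 to 6.61 CPM with NGI-1, with CD3D, CD3E, CD3G, GNLY and KLRD1 at 0 reads. The 11 myeloid markers summed to 42.7 to 45.8 and 64.4 to 69.9 CPM, nearly all from CD68, with S100A8, S100A9 and MPO at 0. The 12 stromal or epithelial markers summed to 94.1 to 96.9 and 87.6 to 98.8 CPM, with EPCAM, KRT18 and KRT19 at 0. Of these markers of other cells 15 passed the filter on low counts, and CD4, CD68 and DCN rose, CD4 from 20 reads to 62 and DCN from 6 to 44. The part of other cells in the results was not tested. Fewer cells in a state and less RNA per cell cannot be told apart in such bulk samples.

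At 24 h NGI-1 changed the RNA of about 3 in 10 tested genes in TMD8. Of 13881 genes, 2166 rose (15.6%) and 2057 fell (14.8%) at an adjusted p under 0.05, together 30.4%. A change of at least 2-fold was reached by 460 genes that rose (3.31%) and 243 that fell (1.75%). The median log2 change over all tested genes was 0.01, and at most 0.01 in size in every other comparison described here. Changes are given as log2 of NGI-1 over DMSO ± SE, from a model in which all 24 groups share the estimate of spread between duplicates. The groups did not overlap in 64.3% of all tested genes, with NGI-1 higher in 33.5% and lower in 30.8%, which is the background for each such statement on a gene. The shares of genes that rose and fell are the background for the gene groups that follow. Where another way of fitting moved a group's count by more than 1.5 times, that count stands beside it. The other fits used no filter on low counts (unfiltered), a stricter filter (strict-filter), only the TMD8 libraries (TMD8), only the libraries of the comparison (compared-only), or the replicate number as a block, over all libraries (block) or within each line and time (nested-block), or were made with DESeq2. The plot of change against level shows ER chaperones at the upper edge for their level and TNF, IL10 and IL4I1 at the lower.

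**Figure D1:**
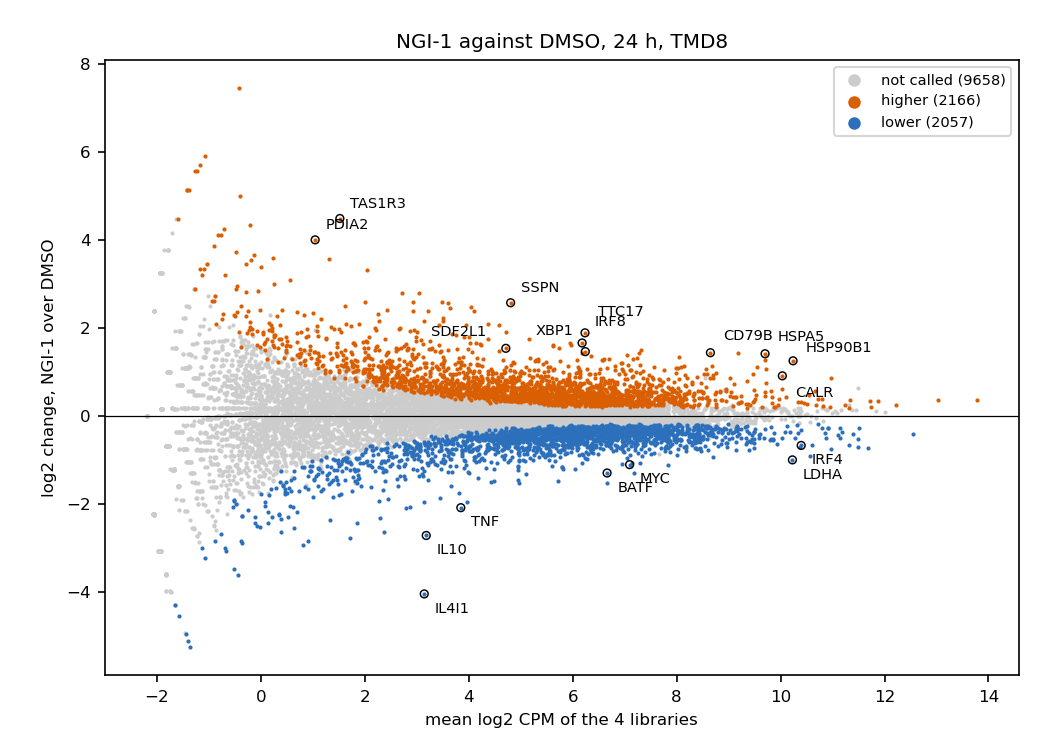
Log2 change of NGI-1 over DMSO at 24 h in TMD8 (vertical axis) against the mean log2 CPM of the 4 libraries (horizontal axis), 1 point for each of 13881 tested genes. Orange points are the 2166 genes that rose and blue points the 2057 that fell at an adjusted p under 0.05, grey points are the others, and named genes are labelled.

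Chaperones of the ER lumen rose together. Of 20 chaperones and co-chaperones tested, 14 rose and 0 fell, with a median log2 change of 0.94 over the 20. HSPA5, the Hsp70 chaperone BiP that also holds the stress sensors inactive, stood at 559.9 and 463 CPM with DMSO and 1421 and 1298 CPM with NGI-1. Both treated libraries lay above both controls, a change of 1.41 ± 0.16, or 2.66-fold (edgeR quasi-likelihood test, adjusted p = 1.57e-07). SDF2L1, a partner of BiP and its J proteins, had 13.2 and 17.4 CPM with DMSO and 45.1 and 43.9 CPM with NGI-1, again without overlap, and rose by 1.53 ± 0.16 (adjusted p = 3.1e-10). HYOU1, a large Hsp110-type nucleotide exchange factor for BiP, went from 98.2 and 92.8 CPM with DMSO to 258 and 215 CPM with NGI-1, a rise of 1.31 ± 0.18 (adjusted p = 2.68e-06). CRELD2, an ER stress protein of the thioredoxin-linked folding machinery, rose by 1.32 ± 0.12. The lectin chaperone CALR, which binds monoglucosylated N-glycans, measured 802 and 729 CPM with DMSO and 1501 and 1373 CPM with NGI-1. Its groups did not overlap and it rose by 0.91 ± 0.09 (adjusted p = 4.75e-11). HSP90B1, the ER form of Hsp90, rose by 1.25 ± 0.12, DNAJC3, a J protein that feeds clients to BiP, by 1.30 ± 0.21, and ARMET (now MANF), a secreted stress factor, by 1.27 ± 0.19. The 6 members that were not called lay between -0.17 and 0.32.

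RNA of genes for disulfide formation was higher in part. Of 18 isomerases and oxidases, 8 rose and 3 fell, with a median of 0.30. PDIA2, an isomerase best known from pancreas, was nearly silent with DMSO: it had 0.538 and 0.286 CPM with DMSO and 6.67 and 6.67 CPM with NGI-1. The groups did not overlap, and the fitted change was 4.0 ± 0.61 on 8 control reads and 116 treated reads (adjusted p = 4.02e-06). PDIA4, which has additional thioredoxin domains, counted 176 and 156 CPM with DMSO and 448 and 393 CPM with NGI-1, a rise of 1.34 ± 0.13 without overlap. PDIA3, the isomerase that works with the lectin chaperones on glycoproteins, rose by 0.97 ± 0.10 and ERO1LB (now ERO1B), an oxidase that recharges isomerases, by 1.48 ± 0.30. PDIA6 rose by 0.43 ± 0.07. P4HB, the archetypal isomerase, rose by 0.41 ± 0.10, with an adjusted p of 0.00224, or 0.0573 without NGI-1 replicate 1 (3.54e-10 to 0.0573 over all alternatives). TXNDC5, another isomerase, fell by 0.36 ± 0.10, with an adjusted p of 0.00487, or 0.0819 without NGI-1 replicate 2 (2.91e-06 to 0.0819 over all alternatives). The count of isomerases and oxidases that fell was 1 without NGI-1 replicate 2.

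Genes of ER-associated degradation, which draws misfolded proteins out of the ER for the proteasome, rose in 15 of 19 cases and fell in 0, with a median of 0.56. DERL3, a derlin of the export channel typical of secretory cells, was measured at 12.3 and 14.7 CPM with DMSO and 45.3 and 56.3 CPM with NGI-1. The treated libraries exceeded both controls, and the rise was 1.91 ± 0.25 (adjusted p = 8.25e-07). SYVN1, the ubiquitin ligase HRD1, counted 183 and 178 CPM with DMSO and 382 and 379 CPM with NGI-1, a rise of 1.08 ± 0.16 without overlap. HERPUD1, which organises that ligase, rose by 1.05 ± 0.17, UBE2J1, its ubiquitin-conjugating enzyme, by 0.82 ± 0.11, and the adaptor SEL1L by 0.61 ± 0.13.

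Among 14 sensors and factors of the unfolded protein response, 8 rose, 0 fell and the median was 0.38. ERN1, the IRE1 sensor, had 5.06 and 5.24 CPM with DMSO and 17.1 and 16.3 CPM with NGI-1, and rose by 1.70 ± 0.22 with no overlap (adjusted p = 5.7e-08). XBP1, the factor whose mRNA IRE1 splices, counted 45.6 and 45.4 CPM with DMSO and 129 and 121 CPM with NGI-1. The groups were apart, and the change was 1.46 ± 0.14 (adjusted p = 2.38e-10); gene counts do not separate spliced from unspliced XBP1. EIF2AK3, the PERK sensor, rose by 0.80 ± 0.14. CREB3L2, a membrane-bound factor of secretory cells, rose by 1.03 ± 0.10. ATF6 had 50.6 and 47.8 CPM with DMSO and 57.3 and 60.8 CPM with NGI-1 and a change of 0.26 ± 0.10 (adjusted p = 0.0295). That call was lost when any of the 4 libraries was left out, with adjusted p of 0.0655 without NGI-1 replicate 1, 0.184 without NGI-1 replicate 2, 0.0567 without DMSO replicate 1 and 0.206 without DMSO replicate 2 (0.00777 to 0.206 over all alternatives). DDIT3, the stress factor CHOP, went from 6.35 and 8.3 CPM with DMSO to 18.3 and 15.7 CPM with NGI-1 and rose by 1.21 ± 0.37 (adjusted p = 0.0144). Its adjusted p was 0.0973 without NGI-1 replicate 1 and 0.116 without DMSO replicate 1 (3.1e-09 to 0.116 over all alternatives).

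ATF4 and most of its targets were not called higher at 24 h. ATF4 itself held 206 and 200.3 CPM with DMSO and 193 and 189 CPM with NGI-1. The treated libraries lay below the controls, and the change of -0.09 ± 0.16 was not called (adjusted p = 0.736). Of 19 ATF4 targets and amino acid genes, 4 rose and 2 fell, with a median of -0.06. The number that rose was 2 without DMSO replicate 2, and the number that fell was 1 without NGI-1 replicate 2 or DMSO replicate 1 and 5 in the unfiltered, nested-block, TMD8 and compared-only fits. SLC7A11, the cystine importer, had 34.3 and 34.6 CPM with DMSO and 111 and 107 CPM with NGI-1 and rose by 1.66 ± 0.35 without overlap. SLC7A5, a transporter of large neutral amino acids, rose by 0.60 ± 0.12, whereas SHMT2, a mitochondrial enzyme of serine metabolism, fell by 0.45 ± 0.11.

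The cytosolic tRNA synthetases, which load amino acids onto tRNAs, were lower: 10 of 18 fell, 0 rose and the median was -0.32. CARS (now CARS1), the cysteine enzyme, had 289.7 and 298 CPM with DMSO and 174 and 180.5 CPM with NGI-1, without overlap, and fell by 0.73 ± 0.07 (adjusted p = 5.5e-11). VARS, the valine enzyme, counted 367 and 356 CPM with DMSO and 231 and 208 CPM with NGI-1 and fell by 0.72 ± 0.09, again with the groups apart. The alanine enzyme AARS changed by 0.21 ± 0.09, which was not called (adjusted p = 0.0786, or 0.00112 in the nested-block fit and 0.0274 in the compared-only fit; 0.00112 to 0.435 over all alternatives). With it the number of synthetases that rose was 1 in the nested-block and compared-only fits. The C/EBP-ATF element (TTGCATCA, either strand) stood in 6 of 14 of their promoter windows, against 0.923% of all windows and 0.54% of those of tested genes. It stood in 0.41% of windows of genes that rose and 0.769% of genes that fell. Among ATF4 targets and amino acid genes 1 of 16 windows held it. Of the 6 synthetases that held it 3 fell, near the 10 of 18 in the whole list.

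The same genes stood differently at earlier times, each measured against its own DMSO libraries. At 3 h 3 tRNA synthetases were higher and at 6 h 8 were, with 0 and 0 lower, beside 0.569% and 2.26% of all tested genes higher and 0.166% and 1.99% lower at those times. The NGI-1 effect at 24 h minus that at 3 h was below 0 and called for 13 of 18 tRNA synthetases and for 8 of 19 ATF4 targets, beside 5.96% of all tested genes, and the second number was 13 in the nested-block and compared-only fits. ATF4 changed by 0.98 ± 0.16 at 3 h and by -0.09 ± 0.16 at 24 h, a difference of -1.07 ± 0.23 (adjusted p = 0.00186). For CARS the effect was 0.15 at 3 h, 0.15 at 6 h and -0.73 at 24 h, and its difference from 3 h was -0.88 ± 0.10 (adjusted p = 2.08e-08). The ER chaperones changed by a median of 0.75 at 3 h, 0.86 at 6 h and 0.94 at 24 h. In the 24 h minus 3 h test 1 of the 20 was higher and 1 lower, near the 6.02% and 5.96% of all tested genes. The number higher was 3 in the nested-block fit, and the number lower 2 in the unfiltered and TMD8 fits and 3 in the nested-block and compared-only fits. The member with the larger effect at 3 h was HSPA5, at 2.28 at 3 h, 2.02 at 6 h and 1.41 at 24 h. Its difference of -0.87 ± 0.22 had an adjusted p of 0.0106, and of 0.0515 without NGI-1 replicate 2, 0.0714 without DMSO replicate 1 and 0.0613 without 3 h DMSO replicate 2 (2.99e-13 to 0.0714 over all alternatives). The member with the larger effect at 24 h was SIL1, a nucleotide exchange factor for BiP, at 0.07 at 3 h and 0.91 at 24 h, a difference of 0.85 ± 0.23 (adjusted p = 0.0102, or 0.0583 without NGI-1 replicate 1 and 0.057 without 3 h NGI-1 replicate 1; 0.0005 to 0.0583 over all alternatives).

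**Figure D2:**
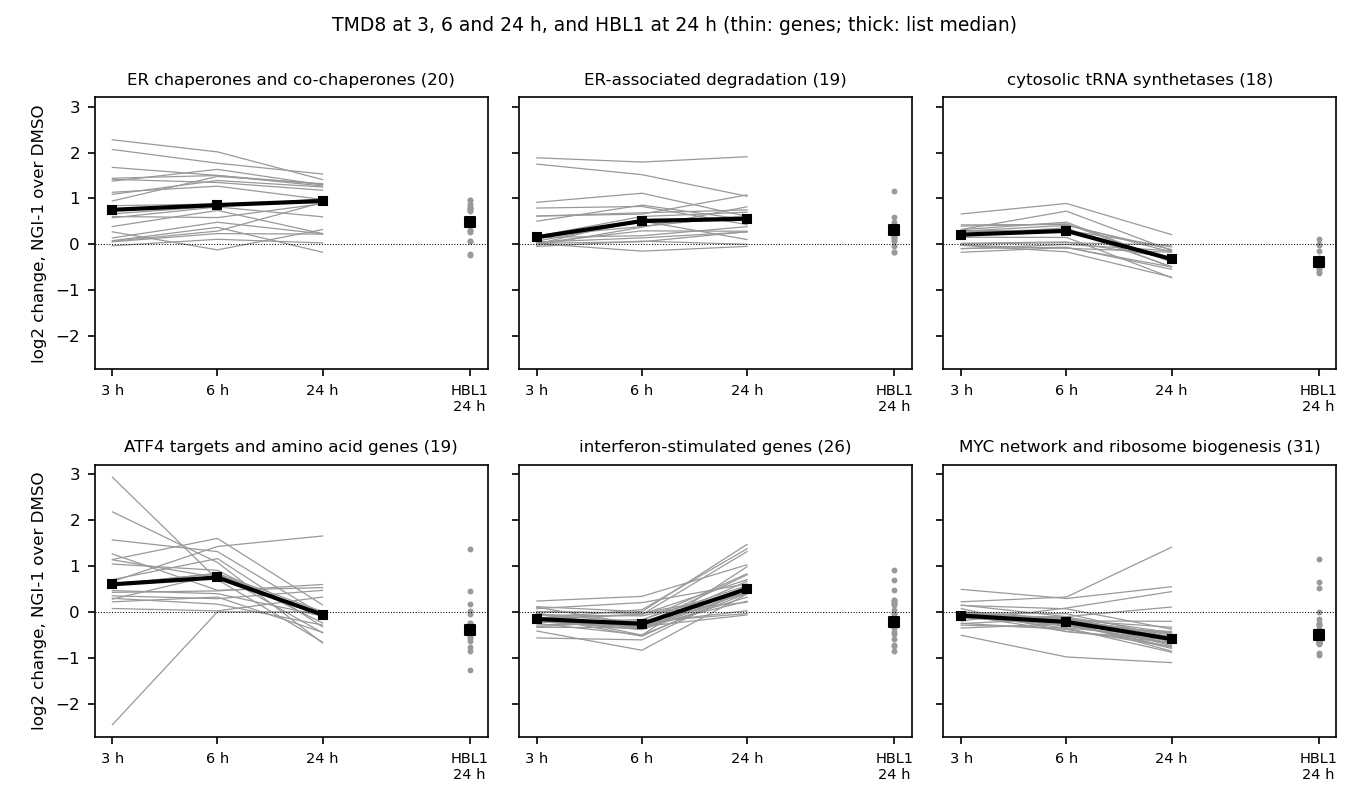
Log2 change of NGI-1 over DMSO (vertical axis) at 3, 6 and 24 h in TMD8 and at 24 h in HBL1 (horizontal axis) for the members of 6 gene lists, 1 thin line per gene joining the TMD8 times, with the list median as a thick black line and square. The times are evenly spaced on the axis, and each time and line has its own DMSO libraries. The tRNA synthetase median goes from 0.21 at 3 h to -0.32 at 24 h, and the interferon-stimulated median from -0.16 to 0.50.

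Parts of the glycosylation machinery that NGI-1 acts on were higher at the RNA level. Of 12 oligosaccharyltransferase subunits, 6 rose and 0 fell, with a median of 0.36, or 0.33 without TUSC3, which had 1 read in all. STT3B, the catalytic subunit that glycosylates after translocation, had 119 and 118 CPM with DMSO and 181 and 176 CPM with NGI-1, and the treated libraries lay above the controls. It rose by 0.59 ± 0.08 (adjusted p = 1.54e-07). STT3A, the catalytic subunit that works during translocation, counted 81.9 and 72 CPM with DMSO and 92.4 and 89.8 CPM with NGI-1, also without overlap, but its change of 0.25 ± 0.10 was not called (adjusted p = 0.0521). It was called at 0.0231 in the block fit, 0.00261 in the nested-block fit, 0.022 in the compared-only fit and 0.0356 without DMSO replicate 1 (0.00261 to 0.427 over all alternatives). MAGT1, the oxidoreductase of the STT3B complex, rose by 0.47 ± 0.09, RPN1 by 0.51 ± 0.09 and DDOST by 0.41 ± 0.08, both of them shared subunits. Of 33 genes that build the dolichol-linked precursor, 8 rose and 2 fell (median 0.13), and the number that rose was 5 without NGI-1 replicate 2, 4 without DMSO replicate 1, 3 without DMSO replicate 2 and 5 in the unfiltered fit. The number of these that fell was 4 in the nested-block fit. ALG12, a mannosyltransferase of that assembly, rose by 0.77 ± 0.14. GNPNAT1 and UAP1, both of which make the nucleotide sugar UDP-GlcNAc, fell by 0.90 ± 0.10 and 0.90 ± 0.11.

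Enzymes that act on glycans after transfer rose in 15 of 23 cases and fell in 0, with a median of 0.34. ST6GAL1, the sialyltransferase that caps N-glycans of B cell surface proteins, had 294 and 259 CPM with DMSO and 571 and 492 CPM with NGI-1, with no overlap and a rise of 0.94 ± 0.11 (adjusted p = 1.09e-08). PRKCSH, the regulatory subunit of glucosidase II, rose by 0.77 ± 0.08, MAN1A2, a Golgi mannosidase, by 0.80 ± 0.11, and B4GALT1, a galactosyltransferase, by 0.70 ± 0.09. Of 22 translocon and signal peptidase genes, 10 rose and 0 fell (median 0.19), and the number that fell was 2 in the strict-filter, block, nested-block, TMD8 and compared-only fits. TRAM1, a protein of the translocation site, had 132 and 124 CPM with DMSO and 247 and 239 CPM with NGI-1 and rose by 0.92 ± 0.10. SPCS3, a signal peptidase subunit, counted 141 and 139 CPM with DMSO and 258 and 244 CPM with NGI-1 and rose by 0.85 ± 0.08. In both the treated libraries lay above the controls. ER to Golgi transport genes rose in 9 of 27 cases (median 0.19), a number that was 5 without DMSO replicate 2, 14 in the compared-only fit and 19 in the nested-block fit. SURF4, a cargo receptor, rose by 0.57 ± 0.10 and SEC24C, a coat subunit, by 0.54 ± 0.08.

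**Figure D3:**
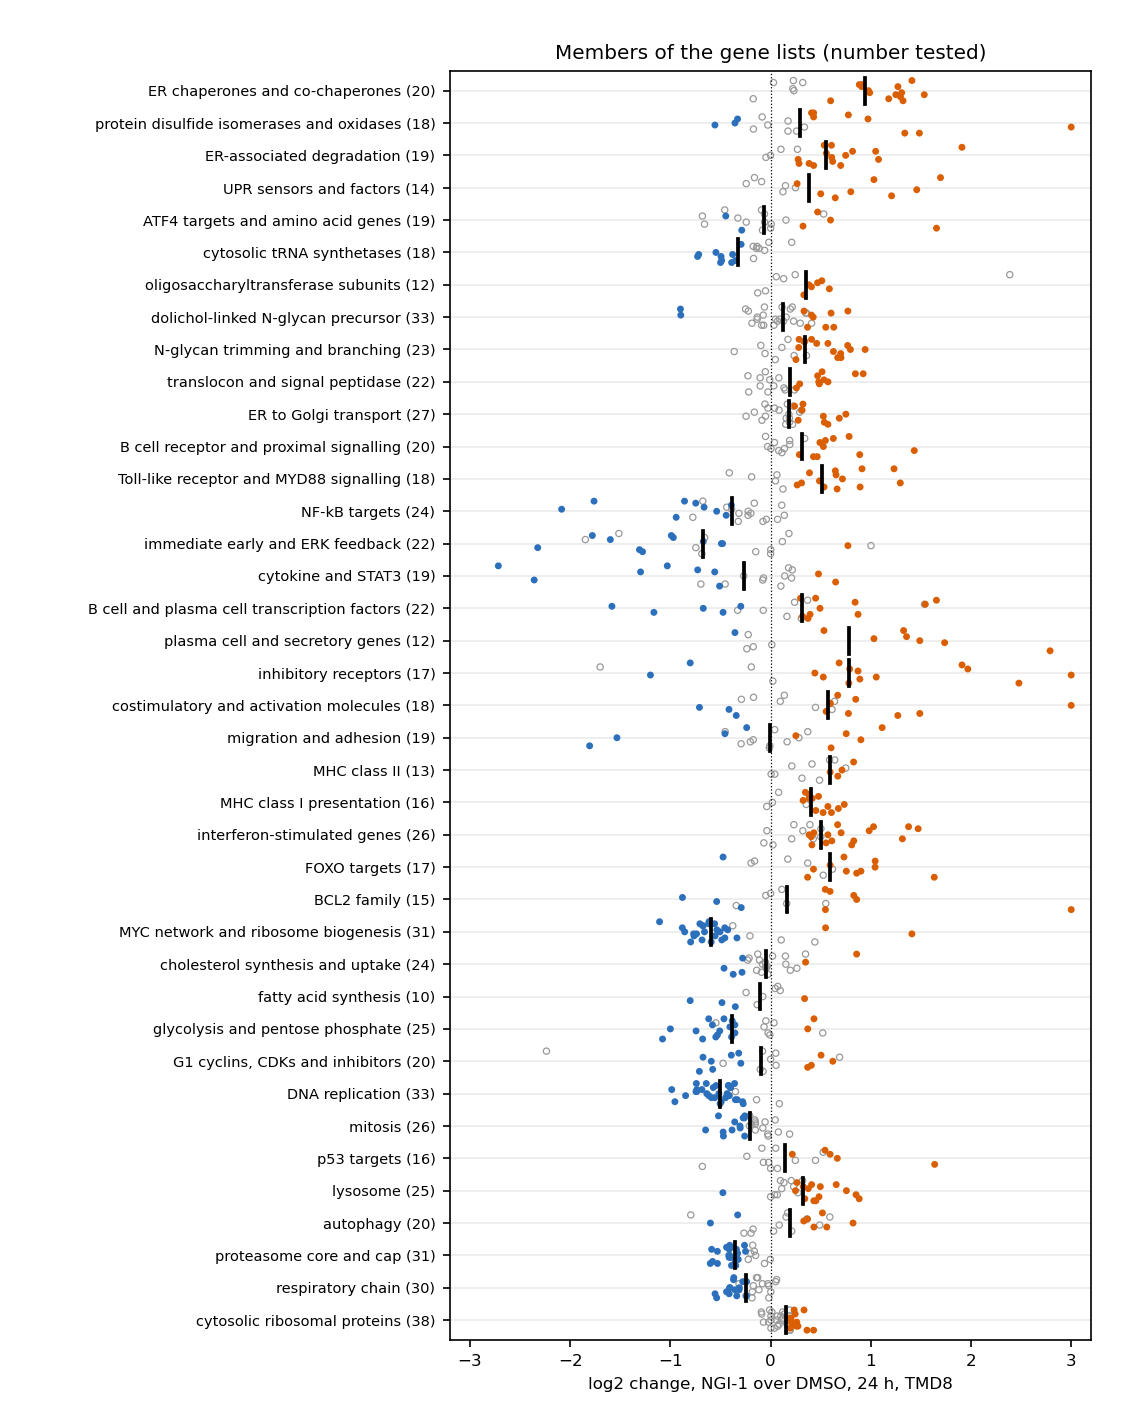
Log2 change of NGI-1 over DMSO at 24 h in TMD8 (horizontal axis) for every tested member of 39 gene lists (each on a line of its own), with filled points for called genes, open points for others and a black bar at each list's median. The dotted line marks 0, close to the median of 0.01 over all 13881 tested genes. Points beyond 3 in either direction are drawn at the edge. DNA replication and proteasome lists lie almost wholly left of 0, and ER chaperone and degradation lists almost wholly right of it.

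The signalling chains of the B cell receptor, CD79A and CD79B, were higher at the RNA level. Of 20 receptor and proximal signalling genes, 10 rose and 0 fell, with a median of 0.31. CD79B counted 244 and 244 CPM with DMSO and 658 and 661 CPM with NGI-1. The groups lay apart, and the rise was 1.43 ± 0.07, or 2.7-fold (adjusted p = 9.84e-20). CD79A had 517 and 480.4 CPM with DMSO and 867 and 849.6 CPM with NGI-1 and rose by 0.78 ± 0.14. DAPP1, an adaptor that binds PI3K lipids, rose by 0.89 ± 0.11 and the coreceptor protein CD81 by 0.63 ± 0.11. BTK, the kinase that acalabrutinib blocks, changed by 0.14 ± 0.07 (adjusted p = 0.112, or 0.0166 in the nested-block fit; 0.0166 to 0.511 over all alternatives).

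Genes of Toll-like receptor and MYD88 signalling rose in 13 of 18 cases and fell in 0, with a median of 0.51. The number that fell was 1 in the unfiltered and TMD8 fits and 2 in the nested-block and compared-only fits. TLR9, the endosomal receptor for DNA that works beside mutant MYD88 in ABC lymphoma, stood at 103 and 106 CPM with DMSO and 199 and 193 CPM with NGI-1. Its groups did not overlap, and it rose by 0.91 ± 0.09 (adjusted p = 4.12e-11). TLR7, the receptor for RNA, counted 27.8 and 23.5 CPM with DMSO and 65.8 and 59.7 CPM with NGI-1 and rose by 1.29 ± 0.13. UNC93B1, which carries both receptors from the ER to endosomes, rose by 0.72 ± 0.10. LY86, a secreted partner of the receptor CD180, rose by 0.89 ± 0.19, and IRAK3, a pseudokinase that restrains the pathway, by 1.23 ± 0.31. MYD88 itself had 120.2 and 117 CPM with DMSO and 145 and 139.9 CPM with NGI-1 and a change of 0.26 ± 0.09 (adjusted p = 0.0287), a call lost on leaving out any 1 of the 4 libraries, with adjusted p of 0.174 without NGI-1 replicate 1, 0.0651 without NGI-1 replicate 2, 0.0787 without DMSO replicate 1 and 0.154 without DMSO replicate 2 (0.000224 to 0.174 over all alternatives).

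The NF-kB targets that were called were lower. Of 24 NF-kB targets, 9 fell and 0 rose, with a median of -0.39, and 15 were not called. The number that fell was 14 in the compared-only fit and 15 in the nested-block fit. TNF, an inflammatory cytokine, was measured at 35 and 24.4 CPM with DMSO and 8.39 and 5.52 CPM with NGI-1. Both treated libraries lay below both controls, and it fell by 2.09 ± 0.21, or 4.25-fold (adjusted p = 6.56e-10). EBI3, a subunit of the cytokines IL27 and IL35, had 22.5 and 29.3 CPM with DMSO and 5.75 and 9.54 CPM with NGI-1 and fell by 1.76 ± 0.21. NFKBIA, the inhibitor that NF-kB induces against itself, counted 66.4 and 56.6 CPM with DMSO and 39.1 and 28.6 CPM with NGI-1 and fell by 0.86 ± 0.17. Neither gene's groups overlapped. LTA, a cytokine of the TNF locus, fell by 0.94 ± 0.22, and the subunit gene NFKB2 changed by -0.22 ± 0.10 and was not called (adjusted p = 0.0994, or 0.00529 in the nested-block fit and 0.0281 in the compared-only fit; 0.00529 to 0.348 over all alternatives).

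Immediate early and ERK feedback genes fell in 10 of 22 cases and rose in 1 (median -0.68). EGR2, a zinc finger factor switched on by antigen receptor signals, had 13.6 and 8.01 CPM with DMSO and 2.76 and 1.49 CPM with NGI-1 and fell by 2.32 ± 0.38 (adjusted p = 9.16e-06). DUSP2, a phosphatase that turns off MAP kinases, counted 21.4 and 21.8 CPM with DMSO and 7.59 and 6.67 CPM with NGI-1 and fell by 1.6 ± 0.19. For both genes the groups were apart. Among 19 cytokine and STAT3 genes, 7 fell and 2 rose (median -0.27), and the number that fell was 4 without NGI-1 replicate 1 or DMSO replicate 2, and the number that rose was 4 in the compared-only fit and 6 in the nested-block fit. IL10, which ABC lymphoma cells secrete and respond to, stood at 26.9 and 18.8 CPM with DMSO and 4.02 and 2.87 CPM with NGI-1, without overlap, and fell by 2.72 ± 0.36 (adjusted p = 8.46e-07). IL6 fell by 2.36 ± 0.39, from 100 reads in the controls to 17. STAT3, the factor that both cytokines activate, had 587 and 553 CPM with DMSO and 406 and 368 CPM with NGI-1 and fell by 0.56 ± 0.09.

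Transcription factors of the B cell and plasma cell programmes split, with 10 of 22 higher and 5 lower (median 0.31). IRF8, which holds B cells before the plasma cell stage, went from 42.9 and 38.6 CPM with DMSO to 133 and 123 CPM with NGI-1, a rise of 1.65 ± 0.10 (adjusted p = 3.3e-17). IRF4, the factor on which ABC lymphoma and plasma cells depend, counted 1854 and 1558 CPM with DMSO and 1141 and 999.8 CPM with NGI-1 and fell by 0.67 ± 0.13 (adjusted p = 0.000251). BATF, an AP-1 factor that pairs with IRF4, had 155 and 162 CPM with DMSO and 67.5 and 61.4 CPM with NGI-1 and fell by 1.30 ± 0.10. None of these 3 showed overlap between groups. ID2 and ID3, which block E proteins, moved apart: ID2 fell by 1.17 ± 0.13 and ID3 rose by 1.54 ± 0.28. PRDM1, the plasma cell repressor BLIMP1, rose by 0.39 ± 0.09, and POU2AF1, a coactivator at immunoglobulin genes, by 0.84 ± 0.09.

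Of 12 plasma cell and secretory genes, 7 rose and 1 fell, with a median of 0.78 over the list. The fallen gene is TXNDC5, whose call was lost without NGI-1 replicate 2, and the number that fell was 2 in the compared-only fit and 3 in the nested-block fit. IGJ (now JCHAIN), the chain that joins antibody polymers, had 3.87 and 2.29 CPM with DMSO and 23.1 and 19.1 CPM with NGI-1 and rose by 2.79 ± 0.27 without overlap (adjusted p = 2.79e-10). MGC29506 (now MZB1), an ER helper of antibody assembly, counted 48.2 and 53.2 CPM with DMSO and 124 and 136 CPM with NGI-1 and rose by 1.36 ± 0.23. CD38, a plasma cell surface enzyme, rose by 1.74 ± 0.41 on 23 control and 68 treated reads. Inhibitory receptors rose in 12 of 17 cases and fell in 2 (median 0.78), and the number that fell was 1 without NGI-1 replicate 2 or DMSO replicate 1. CEACAM1, an adhesion molecule with an inhibitory tail, stood at 8.72 and 5.24 CPM with DMSO and 40.9 and 36.3 CPM with NGI-1, a rise of 2.48 ± 0.27 without overlap. FCRL1, a receptor of the Fc-like family, rose by 1.91 ± 0.20 and CD72 by 1.05 ± 0.09. CD274, the checkpoint ligand PD-L1, fell by 1.2 ± 0.14.

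Costimulatory and activation molecules rose in 8 of 18 cases and fell in 3 (median 0.58), and the numbers that rose and fell were 5 without NGI-1 replicate 1, NGI-1 replicate 2 or DMSO replicate 1, and 1 without DMSO replicate 2. The 8 that rose include TNFSF8, which had 0 control reads and 5 treated reads. Its call was lost with DESeq2, with RLE scaling and with a prior that is not robust. CD37, a tetraspanin of B cells, had 541 and 535 CPM with DMSO and 1301 and 1292 CPM with NGI-1, with the groups apart, and rose by 1.27 ± 0.08 (adjusted p = 1.1e-16). IL2RG, the common cytokine receptor chain, rose by 0.85 ± 0.10. CXCR4, the receptor that draws B cells towards bone marrow and germinal centre dark zones, counted 179 and 191 CPM with DMSO and 398 and 403 CPM with NGI-1 and rose by 1.11 ± 0.10 without overlap. RGS13, which damps chemokine receptor signals in germinal centre cells, fell by 1.53 ± 0.15. Over all 19 migration and adhesion genes 5 rose and 4 fell (median -0.01), and the number that fell was 1 without NGI-1 replicate 1 and 2 if either DMSO library was left out. In the nested-block fit 8 rose and 7 fell.

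Antigen presentation genes were higher. Of 16 genes of the class I pathway, 12 rose and 0 fell, with a median of 0.40. HLA-B had 384 and 429 CPM with DMSO and 588 and 619.5 CPM with NGI-1 and rose by 0.57 ± 0.07. ERAP1, which trims peptides in the ER, counted 155 and 132 CPM with DMSO and 221 and 216 CPM with NGI-1 and rose by 0.61 ± 0.09. Both were free of overlap. The light chain B2M rose by 0.48 ± 0.10. Of 13 class II genes, 4 rose and 0 fell (median 0.59), and the number that rose was 7 in the block fit, 8 in the unfiltered, TMD8 and compared-only fits and 9 in the nested-block fit. HLA-DMB, which helps load peptides, rose by 0.83 ± 0.14 and HLA-DMA by 0.71 ± 0.14. HLA genes resemble each other closely, and reads that match several of them could have been split or lost, so their single values are uncertain.

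Interferon-stimulated genes rose in 16 of 26 cases and fell in 0, with a median of 0.50. OAS1, a sensor of double-stranded RNA, stood at 82.6 and 80.7 CPM with DMSO and 215 and 209 CPM with NGI-1. The groups did not overlap and the rise was 1.38 ± 0.09, or 2.6-fold (adjusted p = 3e-16). ISG20, an exonuclease, had 12.6 and 16 CPM with DMSO and 38.2 and 41.6 CPM with NGI-1 and rose by 1.47 ± 0.19. STAT2, the factor that carries interferon signals, counted 113 and 115 CPM with DMSO and 226 and 238 CPM with NGI-1 and rose by 1.03 ± 0.16. IFIT2 rose by 1.31 ± 0.21 and MX1, an antiviral GTPase, by 0.55 ± 0.11. At 3 h edgeR called 0 of the 26 higher and 0 lower. At an unadjusted p under 0.05 there were 0 and 4, beside 1042 of all 13881 tested genes in either direction. At 6 h edgeR called 0 and 3, beside 2.26% and 1.99% of all tested genes. The 24 h minus 3 h effect was above 0 and called for 16, beside 6.02% of all tested genes. That number was 10 without DMSO replicate 1, 9 without 3 h DMSO replicate 1 and 8 without 3 h NGI-1 replicate 2.

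FOXO targets, which PI3K signals keep low, rose in 10 of 17 cases and fell in 1 (median 0.59), with 0 without NGI-1 replicate 1 or DMSO replicate 1 as the number that fell. TXNIP, an inhibitor of glucose uptake, had 78.6 and 78.9 CPM with DMSO and 170.1 and 154 CPM with NGI-1 and rose by 1.04 ± 0.13. CCNG2, a cyclin of arrested cells, counted 16.7 and 18.4 CPM with DMSO and 36.3 and 36.1 CPM with NGI-1 and rose by 1.04 ± 0.16. Neither had overlapping groups. In the BCL2 family, 6 of 15 rose and 3 fell (median 0.16). BCL2L11, the death activator BIM, stood at 395 and 384 CPM with DMSO and 729.8 and 682 CPM with NGI-1 and rose by 0.86 ± 0.09 (adjusted p = 4.23e-10), BMF, another such activator, by 0.83 ± 0.12, and BID fell by 0.88 ± 0.08. The survival genes MCL1 and BCL2 rose by 0.55 ± 0.07 and 0.55 ± 0.09. HRK had 2 reads in the controls and 40 in the treated libraries, a ratio of 22.7 with an exact 95% interval of 5.9 to 194 that covers counting error only.

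**Figure D4:**
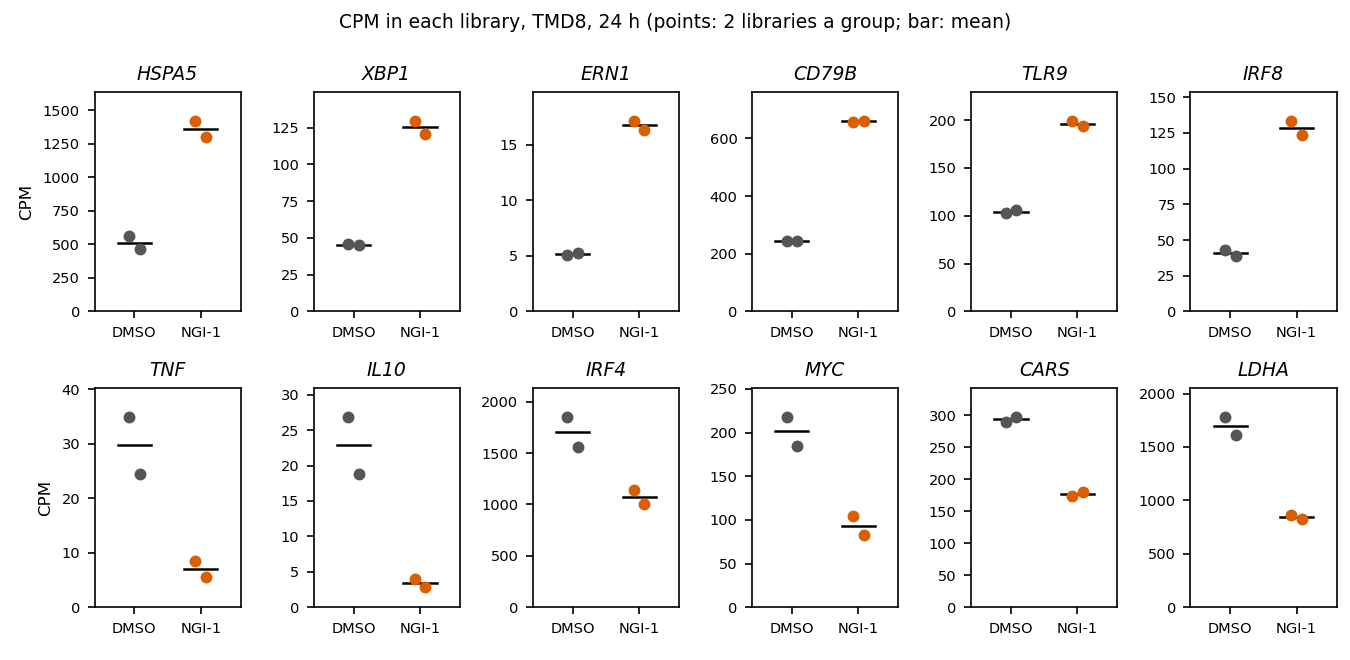
CPM of 12 genes (vertical axis of each panel, from 0) in the 4 libraries of TMD8 at 24 h, with grey points for DMSO, orange points for NGI-1 and a short bar at each mean. The 6 upper genes rose and the 6 lower genes fell, and in each of the 12 the groups are apart.

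Growth genes fell. Of 31 genes of the MYC network and ribosome biogenesis, 25 fell and 2 rose, with a median of -0.59, and the number that rose was 1 without NGI-1 replicate 2, DMSO replicate 1 or DMSO replicate 2 and 1 in the DESeq2, unfiltered, TMD8 and compared-only fits. MYC counted 218 and 185 CPM with DMSO and 104 and 82.5 CPM with NGI-1. The groups were apart, and it fell by 1.11 ± 0.16, or 2.16-fold (adjusted p = 4.55e-06). RRS1, an assembly factor of the large ribosomal subunit, had 67.3 and 62.5 CPM with DMSO and 37.8 and 32.5 CPM with NGI-1 and fell by 0.88 ± 0.12. The nucleolar proteins NCL and NPM1 fell by 0.71 ± 0.11 and 0.66 ± 0.07. MXD4, which competes with MYC for MAX, rose by 1.41 ± 0.23. The ribosomal protein genes themselves did not fall: 14 of 38 rose and 0 fell (median 0.15). RPLP0 rose by 0.33 ± 0.07. The number of ribosomal protein genes that rose was 8 without NGI-1 replicate 1, DMSO replicate 1 or DMSO replicate 2, 6 without NGI-1 replicate 2 and 23 in the nested-block fit.

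DNA replication genes fell in 30 of 33 cases and rose in 0, with a median of -0.50. MCM6, a subunit of the replicative helicase, stood at 259.3 and 250.03 CPM with DMSO and 146 and 137 CPM with NGI-1 and fell by 0.85 ± 0.12. PCNA, the sliding clamp of polymerases, had 337 and 341 CPM with DMSO and 193 and 212 CPM with NGI-1 and fell by 0.75 ± 0.12. Both had all treated values under all controls. Of 26 mitosis genes 12 fell (median -0.21), a number that was 5 without NGI-1 replicate 2 and 7 without DMSO replicate 1. MAD2L1, a spindle checkpoint protein, fell by 0.65 ± 0.13. Among 20 cyclins, kinases and inhibitors of G1, 7 fell and 4 rose, and without NGI-1 replicate 1 the numbers were 4 and 2 (median -0.09). CCNE1, the cyclin of S phase entry, fell by 0.71 ± 0.14.

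Glycolysis and pentose phosphate genes fell in 16 of 25 cases and rose in 2 (median -0.39), and the number that rose was 1 without NGI-1 replicate 2 or DMSO replicate 2. HK2, the inducible hexokinase, counted 244 and 212 CPM with DMSO and 107 and 109 CPM with NGI-1 and fell by 1.08 ± 0.11 (adjusted p = 3.88e-10). LDHA, which turns pyruvate into lactate, had 1783 and 1609 CPM with DMSO and 867 and 829 CPM with NGI-1 and fell by 1.00 ± 0.09. For both the groups were apart. Proteasome subunits, in contrast to the degradation factors in the ER membrane, fell in 24 of 31 cases and rose in 0 (median -0.36). PSMD12, a lid subunit, had 96.6 and 93.6 CPM with DMSO and 68.6 and 56.7 CPM with NGI-1 and fell by 0.60 ± 0.09. Of 30 respiratory chain genes 15 fell and 0 rose (median -0.24), among them CYCS, the electron carrier cytochrome c, which fell by 0.55 ± 0.08.

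Lysosomal genes rose in 14 of 25 cases and fell in 1 (median 0.32). The number that rose was 9 without NGI-1 replicate 2, and the number that fell was 0 without any 1 of the 4 libraries. PSAP, the precursor of saposins, stood at 271 and 272 CPM with DMSO and 454 and 463 CPM with NGI-1, without overlap, and rose by 0.76 ± 0.07. The protease CTSB rose by 0.85 ± 0.11 and the sterol carrier NPC2 by 0.88 ± 0.11. Of 20 autophagy genes 6 rose and 2 fell (median 0.19; the number that fell was 1 without any 1 of the 4 libraries and 1 in the DESeq2 and unfiltered fits, and the number that rose 10 in the nested-block fit), with the cargo receptor NBR1 up by 0.82 ± 0.09 and the conjugating enzyme ATG3 down, at -0.60 ± 0.09. Cholesterol synthesis and uptake genes rose in 2 and fell in 4 of 24 cases (median -0.05), and fatty acid synthesis genes in 1 and 3 of 10 (median -0.11). The fatty acid gene that rose, ACSS2, lost its call when any 1 of the 4 libraries was left out, with adjusted p of 0.172 without NGI-1 replicate 1, 0.0717 without NGI-1 replicate 2, 0.185 without DMSO replicate 1 and 0.064 without DMSO replicate 2, and lost it in the DESeq2 and unfiltered fits (0.0152 to 0.185 over all alternatives). Of the cholesterol genes, the number that fell was 2 without NGI-1 replicate 2 or DMSO replicate 1 and 7 in the nested-block fit, and the number that rose was 4 in the unfiltered and TMD8 fits and 5 in the nested-block and compared-only fits. FASN, the fatty acid synthase, fell by 0.80 ± 0.11. Of 16 p53 targets 5 rose and 0 fell (median 0.14). The number that rose was 3 without DMSO replicate 1, and the number that fell was 1 in the unfiltered, nested-block, TMD8 and compared-only fits. TP53INP1, a stress-induced partner of p53 and of autophagy proteins, rose by 1.64 ± 0.28.

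The largest changes lay partly outside these groups. Among called genes whose log2 CPM averaged at least 1, the taste receptor subunit TAS1R3 rose most, from 0.753 and 0.286 CPM with DMSO to 13 and 10.2 CPM with NGI-1, a fitted change of 4.48 ± 0.39 (adjusted p = 2.06e-12). The controls held 10 reads of it in all. KCNH2, a potassium channel, rose by 3.56 ± 0.50 on 12 control reads, and NLRP7, an innate immune protein, by 3.31 ± 0.33 on 24. LTBP2, a matrix protein that resembles TGF-beta binding proteins, rose by 2.78 ± 0.32. SSPN, a membrane protein of the dystrophin complex, had 12.3 and 10.5 CPM with DMSO and 65.9 and 68.8 CPM with NGI-1, a rise of 2.57 ± 0.19 on a higher base. SLC16A4, a transporter of the monocarboxylate family, rose by 2.59 ± 0.24, and the gap junction genes GJB6 and GJB2, which are neighbours on their chromosome, by 2.58 ± 0.31 and 2.50 ± 0.41. In all of these the treated libraries lay above the controls.

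Among the same genes the deepest fall was that of IL4I1, a secreted enzyme that breaks down aromatic amino acids. It had 25.9 and 44.2 CPM with DMSO and 1.61 and 2.64 CPM with NGI-1, and fell by 4.04 ± 0.29, or 16.5-fold (adjusted p = 6.95e-12). CXCL13, a chemokine that attracts B cells, counted 13.8 and 16.3 CPM with DMSO and 2.07 and 5.06 CPM with NGI-1 and fell by 2.08 ± 0.27. TNIP3, a partner of the NF-kB inhibitor A20, fell by 2.63 ± 0.38. ENPP1, an ectoenzyme that cleaves nucleotides, fell by 2.42 ± 0.33, the growth factor receptor MET by 1.95 ± 0.35 and the transglutaminase TGM2 by 1.95 ± 0.18. The groups of all 6 were apart. The smallest adjusted p of the comparison belonged to TTC17, a tetratricopeptide protein, with 40 and 38.1 CPM with DMSO and 145 and 143 CPM with NGI-1 and a rise of 1.89 ± 0.10 (adjusted p = 6.65e-20).

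Whether NGI-1 acted differently in TMD8 and in HBL1 was tested as the difference of both effects at 24 h. The effect was higher in TMD8 for 251 genes (1.81%) and lower for 106 (0.764%). The number higher was 135 without NGI-1 replicate 1, 149 without DMSO replicate 2, 143 without HBL1 NGI-1 replicate 1, 145 without HBL1 NGI-1 replicate 2 and 155 without HBL1 DMSO replicate 1. The number lower was 42 without NGI-1 replicate 1, 64 without NGI-1 replicate 2, 49 without DMSO replicate 2, 61 without HBL1 NGI-1 replicate 2, 62 without HBL1 DMSO replicate 1 and 57 without HBL1 DMSO replicate 2. XBP1 rose by 1.46 ± 0.14 in TMD8 and by 0.56 ± 0.12 in HBL1, a difference of 0.89 ± 0.18 (adjusted p = 0.00249). ERN1 changed by 1.70 in TMD8 and -0.07 in HBL1, where it was not called, a difference of 1.77 ± 0.32 (adjusted p = 0.000406). IRF8 rose in both, by 1.65 and 0.41, with a difference of 1.25 ± 0.13 (adjusted p = 1.72e-08). CD79B likewise rose by 1.43 and 0.86, a difference of 0.58 ± 0.10 (adjusted p = 0.000271). For HSPA5 the difference of 0.45 ± 0.22 was not called (adjusted p = 0.388, or 0.0099 in the unfiltered fit, 0.0146 in the nested-block fit and 0.0288 in the compared-only fit; 0.0099 to 0.724 over all alternatives), nor was that of MYC at -0.21 ± 0.22 (adjusted p = 0.778).

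Some other genes had effects of opposite sign in the lines, and others differed in size only. CLEC17A, a lectin receptor of B cells, rose in TMD8, with 87.3 and 86.3 CPM with DMSO and 121 and 117 CPM with NGI-1, and fell in HBL1, with 305 and 298 CPM with DMSO and 160.3 and 150.4 CPM with NGI-1. In each line the groups were apart, and the difference of the effects was 1.41 ± 0.11 (adjusted p = 4.32e-13). CTSC, a lysosomal protease, went the same way, at 0.50 in TMD8 and -0.47 in HBL1, as did MX1, at 0.55 and -0.48, with differences of 0.97 ± 0.12 and 1.04 ± 0.16 (adjusted p = 1.13e-06 and 4e-05). The tyrosine kinase SRC did the reverse: it changed by -1.2 in TMD8 and 0.36 in HBL1, a difference of -1.56 ± 0.24 (adjusted p = 4e-05). S1PR2, a receptor that keeps B cells in germinal centres, changed by 0.90 and -1.19, a difference of 2.09 ± 0.36 with an adjusted p of 0.000139, and of 0.0597 without HBL1 DMSO replicate 1 (5.76e-05 to 0.0597 over all alternatives). NAPSB, a pseudogene relative of the protease napsin, rose by 1.06 in TMD8 and changed by 0.14 in HBL1. GGA2, a Golgi sorting adaptor, changed by 0.72 and -0.13, and IL4I1 fell by 4.04 in TMD8 and 1.56 in HBL1. Their differences were 0.91 ± 0.09, 0.85 ± 0.11 and -2.48 ± 0.36.

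By list, the difference between lines was called and above 0 for 8 of 26 interferon-stimulated genes and 7 of 25 lysosomal genes, and below 0 for 0 and 0. Other lists also held such members. The difference was called and above 0 for 4 of 14 sensors and factors of the unfolded protein response. The same held for 4 of 16 class I genes and 4 of 20 B cell receptor genes. Of 19 migration and adhesion genes 4 were below 0 and 1 above. For these other lists the counts in other fits are not given here. In HBL1 3 interferon-stimulated genes rose and 6 fell (median -0.22), beside 7.87% and 11.4% of all tested genes. The number of interferon-stimulated genes that differed was 5 without NGI-1 replicate 2, HBL1 DMSO replicate 1 or HBL1 DMSO replicate 2, 4 without NGI-1 replicate 1 or DMSO replicate 2, 3 without HBL1 NGI-1 replicate 1 and 14 in the nested-block fit, and that of lysosomal genes 11 in the nested-block fit. Among 33 DNA replication, 31 proteasome and 18 tRNA synthetase genes 0, 0 and 0 differed between lines by edgeR's test and by DESeq2. Of all tested genes 2.57% did by edgeR. At an unadjusted p under 0.05 in edgeR 8, 1 and 2 differed, beside 1832 of all 13881 tested genes. Of the 8 DNA replication genes 7 had the lower effect in TMD8, and the median difference of the list was -0.18. For DNA replication genes the number higher was 1 in the block and nested-block fits and the number lower 1 in the compared-only fit and 10 in the nested-block fit, and for tRNA synthetases the number higher was 2 in the nested-block fit. In HBL1 20, 25 and 14 of them fell.

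Against the earlier time, the NGI-1 effect at 24 h was higher than at 3 h for 836 genes and lower for 827. The number higher was 543 without NGI-1 replicate 1, 453 without 3 h NGI-1 replicate 2 and 500 without 3 h DMSO replicate 1, and the number lower 531 without NGI-1 replicate 2, 511 without DMSO replicate 1, 497 without 3 h NGI-1 replicate 2 and 522 without 3 h DMSO replicate 1. At 3 h 0.735% and at 6 h 4.25% of all tested genes were called against their own DMSO libraries, and 30.4% at 24 h. TTC17 changed by 0.20 at 3 h and 0.55 at 6 h, and its 24 h effect exceeded that at 3 h by 1.68 ± 0.13 (adjusted p = 1.81e-12). BTG2, an antiproliferative gene, fell by 0.33 at 3 h and rose by 1.06 at 24 h, a difference of 1.39 ± 0.10 (adjusted p = 3.84e-13). OAS1 differed by 1.51 ± 0.13 (adjusted p = 9.99e-12) and CD79B by 1.27 ± 0.10 (adjusted p = 2.78e-12). Below 0 were the differences of IL4I1, at -3.80 ± 0.34 (adjusted p = 6.23e-09), and of GRPEL2, a mitochondrial cochaperone, at -1.08 ± 0.14 (adjusted p = 2.44e-07). IL10 differed by -1.98 ± 0.45 (adjusted p = 0.00375), having changed by -0.74 at 3 h and -1.75 at 6 h, where it was called.

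The treated libraries were also compared directly with those of the kinase inhibitors at 24 h. These comparisons hold no DMSO library but use the same 2 NGI-1 libraries as all results above. The duplicates of both kinase inhibitors differed more than those of NGI-1, with chi-square per degree of freedom over genes of 6.64 for acalabrutinib, 9.04 for copanlisib and 3.16 for NGI-1. NGI-1 gave higher levels than acalabrutinib for 152 genes (1.1%) and lower levels for 28 (0.202%). Without 1 library these numbers were 79 without NGI-1 replicate 1, 93 without NGI-1 replicate 2 and 66 without acalabrutinib replicate 2, and 11 without NGI-1 replicate 1, 7 without NGI-1 replicate 2, 12 without acalabrutinib replicate 1 and 14 without acalabrutinib replicate 2. Against copanlisib it gave higher levels for 148 (1.07%) and lower for 40 (0.288%), and these were 76 without NGI-1 replicate 1, 93 without NGI-1 replicate 2, 95 without copanlisib replicate 1 and 77 without copanlisib replicate 2, and 15 without NGI-1 replicate 2. Of the ER chaperones 11 of 20 were higher than with acalabrutinib and 13 higher than with copanlisib, with 0 and 0 lower. HSPA5 had 1421 and 1298 CPM with NGI-1, 612 and 539.9 CPM with acalabrutinib and 495 and 431 CPM with copanlisib. Its differences were 1.24 ± 0.16 and 1.55 ± 0.16 (adjusted p = 2.24e-05 and 6.07e-07). CALR and CRELD2 were higher by 0.77 and 1.11 than with acalabrutinib and by 0.96 and 1.19 than with copanlisib. The isomerase PDIA6 was higher by 0.63 ± 0.07 and 0.65 ± 0.07, and 7 and 7 of 18 isomerases and oxidases were, the number against copanlisib being 4 without NGI-1 replicate 1 or copanlisib replicate 2. TTC17 was higher by 1.37 ± 0.09 and by 1.37 ± 0.09.

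Interferon-stimulated genes were higher with NGI-1 than with acalabrutinib in 9 of 26 cases and than with copanlisib in 17, and lower in 0 and 0. The first number was 3 without NGI-1 replicate 1 or acalabrutinib replicate 2, 15 in the unfiltered fit and 20 in the nested-block fit, and the second 10 without NGI-1 replicate 1 or copanlisib replicate 2. MX1 stood at 387 and 348 CPM with NGI-1, 204 and 183 CPM with acalabrutinib and 166 and 149.6 CPM with copanlisib. For MX1 the differences were 0.92 ± 0.11 and 1.22 ± 0.11 (adjusted p = 3.26e-07 and 6.87e-10). For OAS1 they were 0.19 ± 0.09 and 0.14 ± 0.09, which were not called (adjusted p = 0.474 and 0.755). The first was 0.03 in the nested-block fit (0.03 to 0.937 over all alternatives).

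NF-kB targets were higher with NGI-1 than with acalabrutinib in 11 of 24 cases and lower in 0, and the number higher was 6 without acalabrutinib replicate 2. Against copanlisib 2 were higher and 0 lower (lower: 1 in the unfiltered, nested-block and compared-only fits), and the number higher was 1 without copanlisib replicate 1 or copanlisib replicate 2. NFKB2 differed by 0.94 ± 0.11 from acalabrutinib (adjusted p = 1.36e-07) and by -0.19 ± 0.11 from copanlisib (adjusted p = 0.656). BATF differed by 0.61 ± 0.11 and -0.03 ± 0.10 (adjusted p = 0.000373 and 0.987). DUSP2 was higher than with acalabrutinib by 1.75 ± 0.29 (adjusted p = 9.15e-05). The cysteine enzyme CARS and SLC38A5, an amino acid transporter, were higher than with acalabrutinib by 0.65 ± 0.07 and 0.89 ± 0.10. STAT3, CXCL13, RGS13 and LTB, a lymphotoxin subunit, were lower than with copanlisib, at -0.67 ± 0.09, -2.16 ± 0.27, -0.99 ± 0.15 and -1.40 ± 0.24. STAT3 and RGS13 were also called lower than with acalabrutinib. Both calls were lost in the compared-only fit, where the differences were -0.34 ± 0.10 and -0.60 ± 0.16.

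For the growth genes the direct tests called little. Of 31 MYC network and ribosome biogenesis, 33 DNA replication and 31 proteasome genes, 0, 0 and 0 differed from acalabrutinib and 0, 0 and 0 from copanlisib by edgeR's test and by DESeq2, where edgeR called 1.3% and 1.35% of all tested genes. At an unadjusted p under 0.05 in edgeR they were 0, 1 and 0 against acalabrutinib and 2, 3 and 2 against copanlisib. Of all 13881 tested genes, 1191 and 1168 had such a p. The median differences of these lists were from -0.09 to 0.02. In the nested-block fit 2 DNA replication genes and 1 proteasome gene were lower than with acalabrutinib and 4 DNA replication genes lower than with copanlisib. In other lists, 1 of 26 mitosis genes was lower than with acalabrutinib and 1 lower than with copanlisib. Of 25 glycolysis and pentose phosphate genes, 1 was higher and 1 lower than with copanlisib. At an unadjusted p under 0.05 in edgeR, 7 mitosis genes were higher and 1 lower than with copanlisib. Counts of mitosis and glycolysis genes in other fits are not given here. A missed threshold does not show equal levels. For MYC the difference was 0.17 ± 0.17 from acalabrutinib and -0.13 ± 0.16 from copanlisib, for LDHA -0.19 ± 0.09 and -0.08 ± 0.09, and for MCM6 -0.18 ± 0.12 and -0.30 ± 0.12. Of these, LDHA against acalabrutinib had an adjusted p of 0.588, or 0.0046 in the nested-block fit (0.0046 to 0.926 over all alternatives), and MCM6 against copanlisib of 0.331, or 0.000158 in the nested-block fit (0.000158 to 0.814 over all alternatives). CD79B, which rose by 1.43 over DMSO, differed by 0.16 ± 0.07 and -0.02 ± 0.07 from acalabrutinib and copanlisib (adjusted p = 0.488 and 0.994), and TLR9 by 0.15 ± 0.09 from copanlisib (adjusted p = 0.694).

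**Figure D5:**
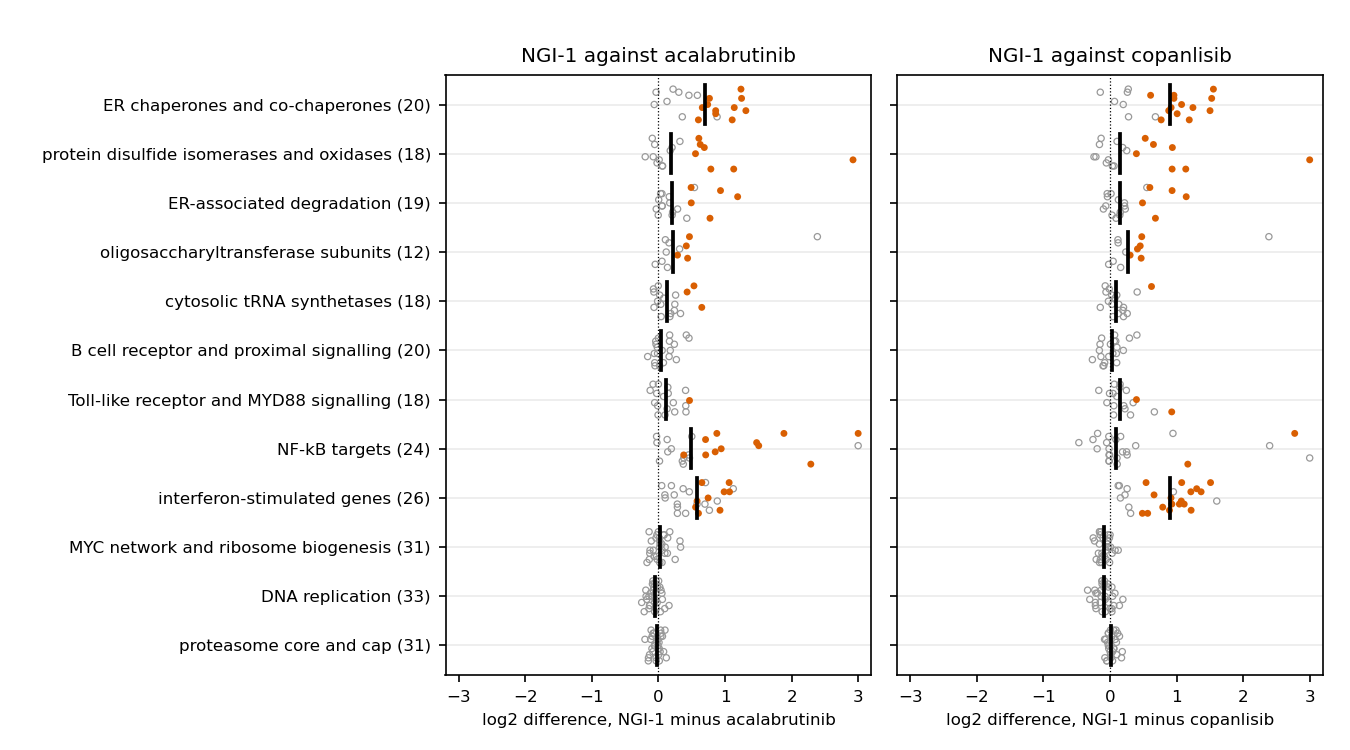
Difference in log2 expression between NGI-1 and acalabrutinib (left) and between NGI-1 and copanlisib (right) at 24 h in TMD8 (horizontal axes) for the members of 12 gene lists (each on a line of its own), with filled points for called genes, open points for others and a black bar at the median. ER chaperones have medians of 0.70 and 0.90, interferon-stimulated genes of 0.58 and 0.91, and DNA replication genes of -0.06 and -0.09. Points beyond 3 are drawn at the edge.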

How the data were processed

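RNA-seq reads per gene were counted by the authors with HTSeq on hg19, per the submitters' processing notes. For the HTSeq version, the aligner, the annotation and the strand setting, the sources used here give nothing. The deposited values are raw counts for 25066 genes in 48 libraries, 24 groups of 2, with 7165377 to 11999050 reads each. A row of totals was left out, 27 symbols that a spreadsheet had turned into dates were restored through their gene IDs, and 3449 entries without a gene ID hold 0.815% of reads. edgeR 4.0.16 (R 4.3.3, limma 3.58.1) fitted all 48 libraries with 1 mean per group (24 residual degrees of freedom), TMM scaling, the filterByExpr filter (13881 genes tested) and robust quasi-likelihood F tests. The p-values were adjusted by Benjamini-Hochberg over all tested genes and called under 0.05. CPM are TMM-scaled. The square root of the common dispersion was 7.34%.

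The members and the 39 gene lists were chosen with earlier results of these data known. The lists hold 833 different genes, of which 812 were tested. Genes named in the text were the 12 largest rises and falls among called genes averaging at least 1 in log2 CPM, at most 4 called genes of each list, 24 genes chosen by name, and the called genes with the smallest adjusted p of each difference or direct test, 5 per direction between lines and 4 per direction otherwise. ARMET, HSP90B1, DNAJC3, SIL1, P4HB, TXNDC5, SEL1L, AARS, UNC93B1, NFKB2, POU2AF1, CD72, CD274, B2M, BCL2, MCL1, NCL, NPM1, TUSC3 and the cell type markers were added after their values were seen. Alternatives were DESeq2 1.42.0, RLE scaling, other filters and libraries, replicate blocks, leaving out each library and, chosen after seeing the data, a prior that is not robust. The tests were tried on simulated counts for 13294 genes. Promoter letters come from RefSeq GRCh38.p14, and 102 of the 119 listed ER genes had a window; no hg19 coordinates are given.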

Additional observations from a re-analysis of the deposited data

Results flagged for a closer look

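Each result here met a test of the difference between 2 NGI-1 effects. Between the lines, the effect in TMD8 at 24 h was higher for 251 genes and lower for 106. The log2 differences, TMD8 minus HBL1, were 0.89 for XBP1, 1.77 for ERN1, 1.25 for IRF8 and 0.58 for CD79B. For CLEC17A the difference was 1.41, for CTSC 0.97, for MX1 1.04, for S1PR2 2.09, for NAPSB 0.91 and for GGA2 0.85. It was below 0 for SRC, at -1.56, and for IL4I1, at -2.48. The call of S1PR2 was lost without HBL1 DMSO replicate 1.

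Between the times, the effect in TMD8 at 24 h was higher than at 3 h for 836 genes and lower for 827. The log2 differences, 24 h minus 3 h, were 1.68 for TTC17, 1.39 for BTG2, 1.51 for OAS1, 1.27 for CD79B and 0.85 for SIL1. Below 0 were ATF4 at -1.07, CARS at -0.88, HSPA5 at -0.87, IL4I1 at -3.80, GRPEL2 at -1.08 and IL10 at -1.98. The calls of SIL1 and HSPA5 were lost in some fits without 1 library, as given above. With 2 libraries a group, no library could be tested for standing apart from its group.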

How the results depend on the processing

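For NGI-1 against DMSO at 24 h in TMD8, alternatives that kept all 4 libraries gave 1975 to 2916 higher and 1922 to 2776 lower genes, and leaving out each library in turn gave 1453 to 1602 and 1408 to 1648. The lone sample that remains in an arm is then assumed to vary like the other groups. None of the 238 genes followed here changed the sign of a called effect in any of these fits. Their calls were less stable, and in every comparison some were lost without 1 library. Of the followed genes called against acalabrutinib, more lost the call in some fit than kept it in every fit. The counts of several gene lists moved and stand beside them in the text. Leaving out 1 library gave 135 to 196 higher and 42 to 73 lower for the difference between lines, 453 to 745 and 497 to 757 for 24 h minus 3 h, 66 to 113 and 7 to 14 against acalabrutinib, and 76 to 95 and 15 to 34 against copanlisib. With no filter on low counts 173 genes were lower between lines, 265 higher and 64 lower against acalabrutinib, and 94 lower against copanlisib. A fit of the TMD8 libraries only gave 47 lower against acalabrutinib and 74 against copanlisib, and a fit of only the libraries compared gave 47 lower against acalabrutinib. The causes were not tested.

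With the replicate number as a block, NGI-1 against DMSO gave 2394 higher and 2277 lower, 170 were lower between lines, 50 against acalabrutinib and 72 against copanlisib. With the block within each line and time these were 2916 and 2776 for NGI-1 against DMSO, 785 higher and 515 lower between lines, 1610 and 1677 for 24 h minus 3 h, 551 and 234 against acalabrutinib, and 497 and 255 against copanlisib. Deviations of libraries with the same number correlated at 0.196 between DMSO and NGI-1, and at 0.187 to 0.457 over the 6 pairs of TMD8 groups at 24 h. Within line and time, 35 of 36 pairs of groups correlated at over 0.1, and the lowest was 0.0827. All 36 lay above 0, so libraries with the same number shared part of their deviation. The labels do not say whether a number marks a shared culture or day, and what it marks was not tested. The main fit does not use this pairing. Depth limits genes with few reads. In simulated counts 87 of 100 genes changed by 1 on the log2 scale were called and 50 of 100 changed by 0.5. The changed genes were drawn only from those above a set level of expected reads. These shares therefore do not cover genes with few reads. Fewer genes were changed than were called in the data, and no effect shared by libraries of the same replicate number was simulated.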
